A study of Homo sapiens with 3 samples.

Results

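The 56 genes described here encode the proteins that mark origins of DNA replication, load and activate the replicative helicase, and build and protect the replication fork. They were chosen by name, and the level of each was obtained by summing the deposited transcript values that carried its gene symbol, separately in each library. All 56 symbols were present among the 35880 symbols of the table. The data came from untreated HEK293T cells, a human embryonic kidney line with an integrated gene for SV40 large T antigen. Cells were kept in high-glucose DMEM with 10% fetal bovine serum and collected at 70% confluence. RNA was captured on oligo-dT, so the values describe polyadenylated RNA from an asynchronous culture. The 3 libraries, labelled biological replicates 1, 2 and 3, formed 1 group with no treated or control arm. Levels could therefore be set only against fixed values, against partner genes in the same library, and against the other genes of the table.

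Replication in human cells begins when the origin recognition complex, with CDC6 and CDT1, loads the MCM2-7 helicase onto DNA in G1, a step called licensing. In S phase the kinases DDK and CDK drive CDC45 and the GINS complex onto MCM2-7, which turns it into an active helicase. Polymerase alpha-primase then lays down primers, polymerase epsilon extends the leading strand and polymerase delta the lagging strand, both helped by the PCNA clamp that RFC loads. E2F transcription factors drive many of these genes at the G1/S boundary, and SV40 large T antigen binds the RB-family proteins that hold E2F in check.

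Levels are in TPM, a length-corrected share of each library's transcripts, so levels of different genes can be compared. That comparison depends on how reads were split among the transcripts of a gene, since short forms gain TPM from few reads. In ORC4 the leading form was 552 bases long and the second 6530 bases. MCM4-208, a form of 498 bases, added a mean of 49.2 TPM to MCM4. How far this moves the order of genes was not tested. In bulk RNA, fewer cells that use a gene and less of its RNA per cell cannot be told apart. The 56 genes summed to 5179, 5113 and 5196 TPM in replicates 1, 2 and 3, a mean of 5162 ± 44.0 TPM (SD, n = 3) or 0.516% of all TPM. Their median level was 72.8 TPM, against 6.24 TPM for all protein-coding symbols and 22.0 TPM for protein-coding symbols of at least 1 TPM. limma's moderated one-sample test called a gene above a level where the adjusted p was under 0.05. All 56 genes were called above 1 TPM, against 58.5% of the 21990 symbols tested. Above 10 TPM, 55 of the 56 were called, against 39.7% of the symbols tested. Above 100 TPM, 14 were called and 39 were called below, against 7.03% of the symbols tested that were called above. Among the 17250 protein-coding symbols tested, 70.7% were called above 1 TPM, 49.5% above 10 TPM and 8.83% above 100 TPM. The genes were picked for their known roles in dividing cells, so these shares describe them and test nothing about the list.

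**Figure D1:**
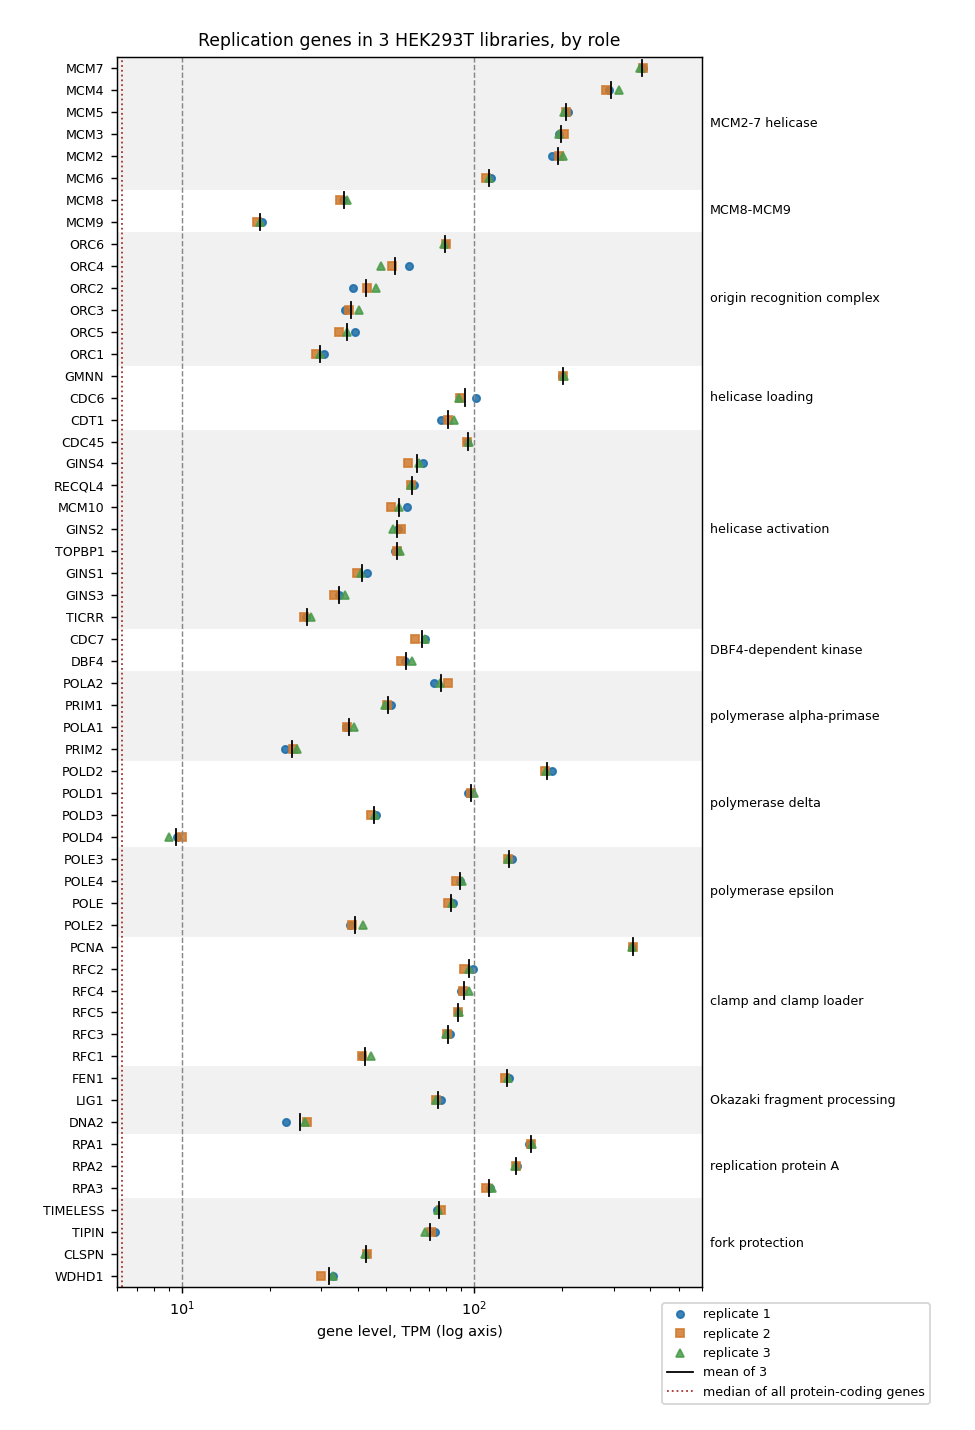
Level of each of the 56 replication genes in TPM (log axis) in the 3 HEK293T libraries, with genes in rows grouped by role. Points are libraries, black bars are means, dashed lines mark 10 and 100 TPM, and the dotted line marks the median of all protein-coding genes at 6.24 TPM. The MCM2-7 genes and PCNA lie at the right and POLD4, at 9.01 to 10.02 TPM, lies at the left.

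Promoter sequences are shown first, since transcription through E2F is the textbook route by which many of these genes are switched on together. RefSeq promoter windows (GRCh38.p14, from 250 bases before to 50 bases after the annotated start) matched 48 of the 56 genes by symbol. The windows were searched on both strands for the 8-base forms TTTGGCGC, TTTCCCGC, TTTGCCGC and TTTCGCGC, called E2F-like here, and for CCAAT, the core letters bound by the factor NF-Y. An E2F-like match was present in 21 of the 48 windows (43.8%), against 3.33% of all 27305 promoters and 5.81% of the 7121 promoters of other protein-coding genes with at least 10 TPM. At least 2 matches were present in 4 windows (8.33%), those of MCM2, MCM3, MCM6 and MCM7, against 0.154% of all promoters. CCAAT was present in 28 of the 48 windows (58.3%), against 35.7% of all promoters and 38.1% of those of the other genes with at least 10 TPM. The median GC content was 64.8% in the 48 windows, 58.3% in all windows and 66.0% in those of the other genes with at least 10 TPM. A match says only that these letters are present, and a window without a match may hold near forms that were not searched.

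The 4 MCM2-7 promoters in the table (MCM2, MCM3, MCM6 and MCM7) all held an E2F-like match, as did 4 of 7 helicase activation genes, 3 of 4 polymerase epsilon genes and 2 of 3 helicase loading genes. The origin recognition complex had 1 of 6, the polymerase delta genes had 0 of 3, and the CDC7 and DBF4 promoters had none. Of 27 matches, 19 began between 60 bases before and 30 bases after the annotated start, with overlapping matches counted separately. Genes with a match had a median level of 76.7 TPM (21 genes), and those without had 66.1 TPM (27 genes). CCAAT and an E2F-like match occurred together in 13 windows, and 12 windows held neither. Positions and joint occurrence were not counted over all promoters, so these counts describe the 48 windows only.

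The windows of 3 genes are printed as a rich, an intermediate and an empty case, from 200 bases before to 20 bases after the annotated start, with E2F-like matches in capitals. MCM6 (chr2:135876424-135876643, minus strand) encodes a helicase subunit and held 4 matches, which overlap in pairs on opposite strands. PCNA (chr20:5126603-5126822, minus strand), the sliding clamp, held 1 match and 3 CCAAT boxes. GMNN (chr6:24774737-24774956, plus strand), the geminin inhibitor of CDT1, held neither motif in its whole window at a level of 201.2 TPM.

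MCM6: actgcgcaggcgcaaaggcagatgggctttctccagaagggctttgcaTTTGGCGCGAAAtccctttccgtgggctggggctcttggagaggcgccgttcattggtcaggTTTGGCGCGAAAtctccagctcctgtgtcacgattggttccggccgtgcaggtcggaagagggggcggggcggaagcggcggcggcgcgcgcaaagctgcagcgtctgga
PCNA: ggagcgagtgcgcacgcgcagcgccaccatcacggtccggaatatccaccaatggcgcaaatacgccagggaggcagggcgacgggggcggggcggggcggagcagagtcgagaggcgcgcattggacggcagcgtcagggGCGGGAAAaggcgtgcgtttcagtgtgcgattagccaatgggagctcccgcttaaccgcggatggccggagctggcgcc
GMNN: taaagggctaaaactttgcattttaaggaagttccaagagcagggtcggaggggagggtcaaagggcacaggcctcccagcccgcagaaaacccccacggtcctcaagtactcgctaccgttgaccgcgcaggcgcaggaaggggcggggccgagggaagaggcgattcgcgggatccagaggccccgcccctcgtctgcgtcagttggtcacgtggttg

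For MCM2, MCM3 and MCM7 most of the window lay in exons of GENCODE 29 transcripts that begin further upstream, so only the 30 bases around the match nearest the RefSeq start are printed. Those outermost starts lay 188 bases upstream of the RefSeq start in MCM2, 139 in MCM3 and 543 in MCM7. The stretches lie at chr3:127598401-127598430 (plus strand) for MCM2, chr6:52284728-52284757 (minus strand) for MCM3 and chr7:100101388-100101417 (minus strand) for MCM7. MCM2 held an overlapping pair of matches as MCM6 did, here as a 12-base palindrome. The exon overlap was not limited to these 3 genes. All 220 bases lay in annotated exons of the gene for CDC6, CDT1, GINS3, TOPBP1, DBF4, POLA2, POLE2, RFC4, FEN1 and LIG1. For CDC45 it was 202 bases, and some further windows also lay mostly in exons. Match positions are thus distances from the RefSeq start, which need not be where the measured RNA begins.

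MCM2: acgtgaaccactTTTCGCGCGAAAcctggt
MCM3: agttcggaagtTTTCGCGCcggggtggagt
MCM7: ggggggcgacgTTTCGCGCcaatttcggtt

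**Figure D2:**
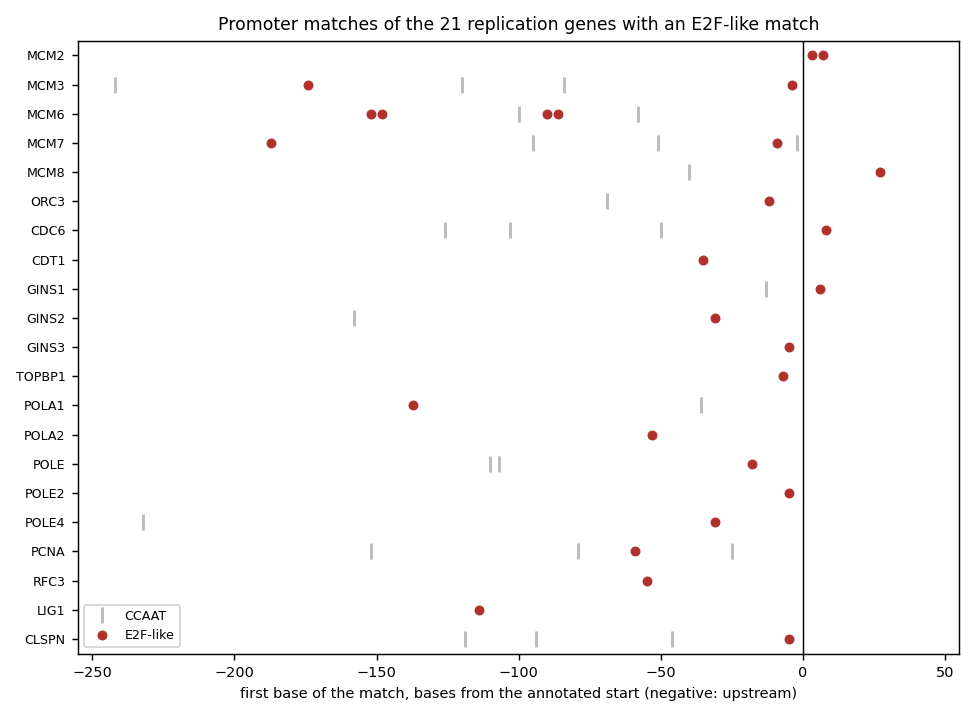
Position of E2F-like (red points) and CCAAT (grey ticks) matches in the promoter windows of the 21 replication genes with an E2F-like match, in bases from the annotated start at 0. Of 27 E2F-like matches, 19 lie between -60 and 30, and MCM6 has 4. Overlapping matches are counted separately, and positions were not counted in other promoters.

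Licensing starts at the origin recognition complex, whose subunits had low to middling levels. ORC6, the subunit least tightly bound to the others, was highest, with 79.3, 79.8 and 78.6 TPM. ORC1, the ATPase subunit that is degraded after S phase begins in human cells, was lowest, with 30.7, 28.8 and 29.6 TPM. The ORC6 level was 2.67 ± 0.092 times that of ORC1 (SD, n = 3), and their 3 values did not overlap. The other 4 subunits averaged between 36.8 TPM (ORC5) and 53.4 TPM (ORC4). ORC4 had 59.6, 52.4 and 48.1 TPM, the widest relative spread of all 56 genes at a CV of 10.9%.

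CDC6, the ATPase that helps the origin complex load the helicase, had 101.0, 89.6 and 88.7 TPM. CDT1, which carries MCM2-7 to the origin, had 77.2, 81.4 and 85.2 TPM. GMNN, which binds and blocks CDT1 outside G1, had 199.7, 200.9 and 203.0 TPM. GMNN was the highest of the 3 loading genes in every library, at 2.48 ± 0.103 times CDT1. CDC6 was higher than CDT1 on average by 0.19 ± 0.05 on the log2 scale (SE), and lay above it in all 3 libraries. That difference did not pass without replicate 1 (adjusted p = 0.0649 in limma's test), the library where CDC6 was highest and CDT1 lowest. GMNN was called above 100 TPM and CDT1 below it, and CDC6 was not placed on either side (adjusted p = 0.0701 in limma's test).

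The 6 subunits of the MCM2-7 helicase held 26.7% of the summed TPM of the 56 genes, and all 6 were called above 100 TPM. MCM7 was the most abundant of all 56 genes, with 377, 376 and 368 TPM. MCM4 followed among the helicase subunits with 289, 281 and 311 TPM. The replicate 3 value of MCM4 was the highest, and a 366-base transcript of it annotated for nonsense-mediated decay, MCM4-204, was listed at 0 in replicates 1 and 2 and at 27.3 TPM in replicate 3. MCM5 had 209.5, 206 and 202 TPM. MCM3 had 195, 202 and 195 TPM. MCM2 had 184, 194 and 202 TPM. MCM3 overlapped in its values with both MCM5 and MCM2, the MCM2 values lay just below those of MCM5 without overlap, and none of the 3 differences among these genes passed the test. MCM6 was the lowest, with 114, 109 and 112 TPM, and did not overlap any other subunit. MCM7 was 3.34 ± 0.086 times MCM6.

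The median MCM2-7 subunit was at 202.8 ± 1.23 TPM, and the median origin complex subunit was at 40.7 ± 2.31 TPM (SD, n = 3). Their ratio was 4.99 ± 0.291. MCM8 and MCM9, helicase relatives known from homologous recombination, were far below the replicative subunits. MCM8 had 35.6, 34.8 and 36.7 TPM, and MCM9 had 18.8, 18.1 and 18.6 TPM. MCM8 stood at 1.93 ± 0.042 times MCM9 with no overlap.

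Among the genes that activate the helicase, CDC45, the partner that joins GINS on MCM2-7, was highest with 94.0, 94.2 and 95.9 TPM. TICRR, the CDK substrate also called treslin, was lowest with 26.5, 26.2 and 27.6 TPM. CDC45 was 3.54 ± 0.056 times TICRR. The 4 GINS subunits, which form a complex of 1 copy each, ranged between 34.6 ± 1.52 TPM (GINS3) and 63.5 ± 3.65 TPM (GINS4), and all 6 differences between them passed the test. A 390-base retained-intron transcript, GINS4-208, was assigned 5.77 and 6.04 TPM in replicates 1 and 2 and nearly nothing in replicate 3. All of its 31-base words also occur in other GINS4 transcripts. The GINS4 totals did not follow it, at 66.7, 59.5 and 64.4 TPM. MCM10, which helps the assembled helicase start, averaged 55.3 ± 3.46 TPM, and RECQL4, a RecQ helicase needed for initiation, averaged 61.1 ± 0.751 TPM. TOPBP1, the scaffold that TICRR works with, averaged 54.5 ± 0.914 TPM and was 2.04 ± 0.031 times TICRR.

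The kinase DDK consists of CDC7 and its activator DBF4. CDC7 had 68.0, 62.4 and 67.9 TPM, and DBF4 had 58.0, 56.0 and 61.0 TPM. CDC7 was 1.13 ± 0.034 times DBF4, and their values did not overlap. Most of the DBF4 level was assigned to transcripts that are not annotated as protein-coding, as described further on.

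The polymerase alpha-primase complex carries 1 copy of each of 4 subunits. POLA2, the accessory subunit, was highest with 73.0, 81.1 and 76.1 TPM. PRIM2, the large primase subunit, was lowest with 22.5, 24.0 and 24.8 TPM. PRIM1, the catalytic primase subunit, averaged 50.5 ± 1.41 TPM, and POLA1, the catalytic polymerase subunit, averaged 37.3 ± 1.20 TPM. The 4 genes kept separate ranges, and POLA2 was 3.23 ± 0.156 times PRIM2.

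The polymerase delta genes covered the widest range of any complex. POLD2, the small subunit that links the others, was highest with 184, 174 and 175 TPM. POLD1, the catalytic subunit, had 95.1, 97.3 and 99.9 TPM, and was not placed on either side of 100 TPM (adjusted p = 0.124 in limma's test). POLD3, an accessory subunit that binds PCNA, averaged 45.3 ± 1.03 TPM. POLD4, the smallest subunit, was the lowest of all 56 genes, with 9.64, 10.02 and 9.01 TPM. POLD2 was 18.6 ± 1.11 times POLD4. POLD4 was the only one of the 56 not called above 10 TPM, at a difference of -0.07 ± 0.05 on the log2 scale (SE, adjusted p = 0.238 in limma's test), and about 161 estimated reads stood behind its replicate 1 value.

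In polymerase epsilon the histone-fold subunit POLE3 was highest with 135, 130.5 and 129.9 TPM. POLE2, the second-largest subunit, was lowest with 37.5, 38.0 and 41.7 TPM. POLE3 was 3.38 ± 0.239 times POLE2. The catalytic subunit POLE averaged 83.1 ± 1.68 TPM and POLE4, the partner of POLE3, averaged 89.0 ± 2.04 TPM. POLE and POLE4 did not pass the test against each other, although POLE was the lower in all 3 libraries, and the 95% interval of their log2 difference was -0.19 to -0.0029 before adjustment over pairs.

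The clamp PCNA was the second most abundant of the 56 genes and varied least between libraries, with 347.1, 349.1 and 346.7 TPM and a CV of 0.372%. RFC1, the large subunit of the clamp loader, was lowest of its group with 41.4, 41.3 and 44.2 TPM. PCNA, which works as a trimer, was 8.23 ± 0.332 times RFC1. The 4 small loader subunits were close to each other, between 81.0 TPM (RFC3) and 95.8 TPM (RFC2). RFC2 was not placed on either side of 100 TPM (adjusted p = 0.0575 in limma's test).

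FEN1, the flap nuclease of Okazaki fragment processing, was highest of its group with 131, 127 and 130.3 TPM. DNA2, the nuclease and helicase that handles long flaps, was lowest with 22.7, 26.9 and 26.3 TPM. FEN1 was 5.16 ± 0.549 times DNA2, and the fold was largest in replicate 1, where DNA2 was lowest. LIG1, the ligase that seals the fragments, averaged 74.9 ± 1.93 TPM.

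Replication protein A, which coats single-stranded DNA as a complex of 1 copy each of 3 subunits, had a narrow range of levels. RPA1, the large subunit, had 154, 156 and 157 TPM. RPA2 had 140.0, 138 and 138 TPM. RPA3, the smallest, had 113, 109.5 and 115 TPM. The ranges did not overlap, all 3 differences passed the test, and RPA1 was 1.39 ± 0.031 times RPA3. RPA1 over RPA2 did not pass without replicate 2 (adjusted p = 0.0536 in limma's test). On protein-coding transcripts only, RPA1 over RPA3 did not pass (0.045 on the log2 scale, adjusted p = 0.214 in limma's test).

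Of the fork protection genes, TIMELESS, which travels with the fork as the partner of TIPIN, was highest with 74.8, 76.7 and 75.4 TPM. WDHD1, which couples the helicase to polymerase alpha, was lowest with 32.9, 29.9 and 32.9 TPM. TIMELESS was 2.38 ± 0.163 times WDHD1. TIPIN averaged 70.7 ± 2.94 TPM, and that pair did not pass the test (adjusted p = 0.0537 in limma's test) with TIMELESS higher in all 3 libraries. CLSPN, the checkpoint mediator claspin, averaged 42.6 ± 0.425 TPM.

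Partner genes were compared within libraries as 79 pairs, 67 of them subunits of the same complex and 12 of them genes that act together. Of the 79 pairs, 71 (89.9%) differed at an adjusted p under 0.05, with a largest adjusted p among them of 0.0176 in limma's test over the pairs. Pairs of unrelated genes were not tested, so whether this share is particular to partner genes cannot be told. The sign was the same in all 3 libraries in 70 of those 71, the exception being ORC2 over ORC5. limma pooled the spread over the pairs, so the SE lay between 0.048 and 0.054 for every pair although the pairs' own SDs ran between 0.011 and 0.286 on the log2 scale, and pairs that share a gene are not independent.

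The 8 pairs that did not pass were MCM2/MCM3, MCM2/MCM5, MCM3/MCM5, ORC3/ORC5, POLE/POLE4, RFC2/RFC4, RFC4/RFC5 and TIMELESS/TIPIN. Their log2 differences were all between -0.10 and 0.10. MCM2 over MCM3 was the smallest, at -0.03 ± 0.05 (SE), with a 95% interval of -0.13 to 0.06. ORC3 over ORC5 was at 0.04 ± 0.05, with a 95% interval of -0.05 to 0.14. RFC2 over RFC4 was at 0.05 ± 0.05, with a 95% interval of -0.04 to 0.15. These intervals bound the difference and do not show equal levels. Without replicate 1, ORC3/ORC5 (adjusted p = 0.0242 in limma's test), POLE/POLE4 (0.0476) and TIMELESS/TIPIN (0.0141) passed. On protein-coding transcripts only, MCM2 over MCM3 and MCM2 over MCM5 passed, each at -0.28 on the log2 scale (adjusted p = 0.000186 and 0.000197 in limma's test), and ORC3/ORC5 and POLE/POLE4 passed with the sign turned round (-0.14 and 0.79, adjusted p = 0.0311 and 5.80e-06).

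In polymerase alpha-primase, polymerase delta, replication protein A and GINS, where every pair passed, the smallest differences were PRIM1 over POLA1 at 1.36 ± 0.075 times, POLD2 over POLD1 at 1.83 ± 0.096 times, RPA1 over RPA2 at 1.12 ± 0.021 times and GINS4 over GINS2 at 1.17 ± 0.091 times. The largest within GINS was GINS4 over GINS3 at 1.84 ± 0.084 times, and within RFC it was RFC2 over RFC1 at 2.27 ± 0.108 times. With only protein-coding transcripts counted, PRIM1 over POLA1, RPA1 over RPA2 and GINS4 over GINS2 changed direction. In all, 23 of the 79 pairs changed direction with a pass in either setting. RFC2/RFC4, RFC4/RFC5 and TIMELESS/TIPIN also changed sign but passed in neither.

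Transcripts that share a gene symbol are not all messages for the protein, so the levels were split by GENCODE 29 transcript type. Protein-coding transcripts held 78.9 ± 0.587% of the summed TPM of the 56 genes (SD, n = 3). Transcripts with a retained intron held 14.5 ± 0.175%, processed transcripts 3.71 ± 0.309% and nonsense-mediated decay transcripts 2.72 ± 0.374%. The median gene had 86.7% of its TPM in protein-coding transcripts, against 84.6% for the 8787 other protein-coding genes of at least 10 TPM. Protein-coding transcripts held under 50% in 4 of the 56 genes (7.14%), against 14.8% of those other genes. They held over 90% in 20 of the 56 (35.7%), against 40.5% of the others.

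**Figure D3:**
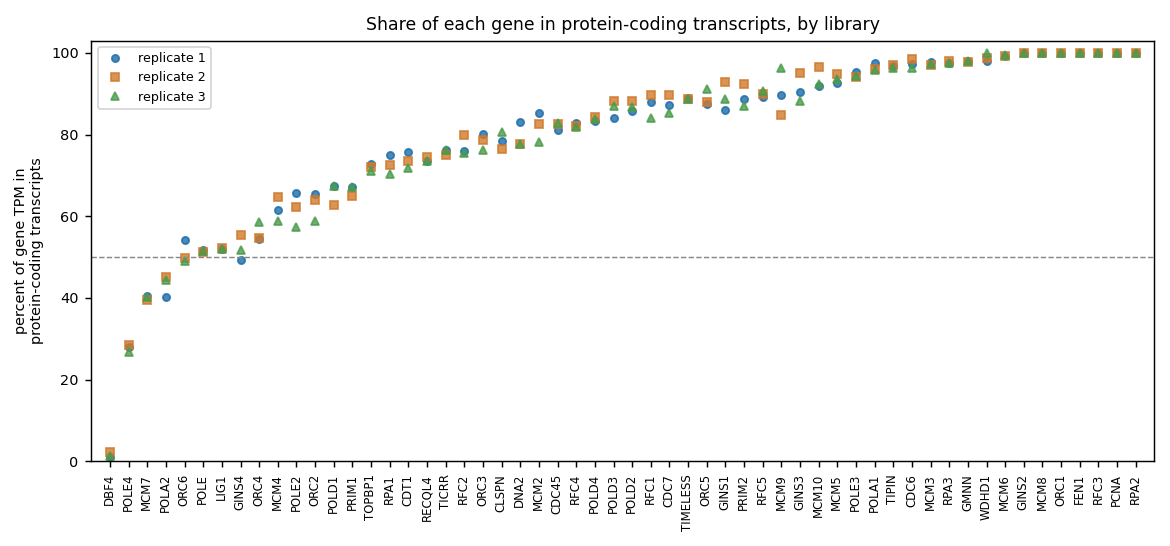
Percent of each gene's TPM that lay in transcripts annotated as protein-coding (vertical axis), for the 56 replication genes in order of their mean, with 1 point per library. DBF4, POLE4, MCM7 and POLA2 lie below the dashed 50% line, at means of 1.58%, 27.7%, 40.0% and 43.2%.

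The 4 genes under 50% were DBF4, POLE4, MCM7 and POLA2. In 53 of the 56 genes the most abundant transcript was a protein-coding one, and the exceptions were the first 3 of these. For each, an internal stretch present in only 1 of the main transcript and the main protein-coding transcript is printed, to show a difference between the forms; their ends differ as well.

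MCM7-210, annotated with a retained intron, had 209.9, 213 and 202 TPM and held 55.7% of the MCM7 level. The protein-coding MCM7-201 had 151, 147 and 146 TPM. MCM7-210 was above MCM7-201 in all 3 libraries without overlap. It keeps a 75-base intron of MCM7-201 (chr7:100099204-100099278, minus strand), lacks 570 bases at the 5′ end of MCM7-201 and adds 53 bases at the 3′ end. The share of 31-base words found in no other MCM7 transcript was 0% for MCM7-201 and 0.040% for MCM7-210, so the split rests on words that other transcripts of the gene also hold. The summed MCM7 level also depends on that split to some degree, since TPM divides reads by length. MCM7-210 is 2515 bases long and MCM7-201 is 2957. The size of this effect was not tested. The microRNA hairpins MIR25 and MIR106B lie inside the gene, and 0 of the 8 MCM7 transcripts above 0 TPM held either.

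For DBF4, transcripts annotated as protein-coding were assigned 1.58 ± 0.654% of the level. The full-length coding form DBF4-201 had 0.641, 1.30 and 0.797 TPM. The nonsense-mediated decay form DBF4-204 had 19.9, 21.0 and 21.1 TPM, the retained-intron form DBF4-205 had 14.2, 15.1 and 18.1 TPM, and the nonsense-mediated decay form DBF4-202 had 13.7, 11.5 and 13.6 TPM. DBF4-204 lacks a 92-base coding stretch of DBF4-201 (chr7:87878134-87878225, plus strand), which is not a multiple of 3, and also 305 bases at the 5′ end and 1168 bases at the 3′ end. The share of 31-base words found in no other DBF4 transcript was 1.54% for DBF4-202, 1.30% for DBF4-204 and 4.23% for DBF4-205. The levels assigned to these forms thus rest mostly on words that other transcripts of the gene also hold. How far this affects the coding share was not tested. Of the 31-base words of DBF4 transcripts, 22.4% also occurred in the pseudogene DBF4P1, which was at 0.259 TPM.

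POLE4-203, a processed transcript, had 38.8, 39.6 and 37.8 TPM. The protein-coding POLE4-205 had 25.1, 24.7 and 24.2 TPM, and the retained-intron form POLE4-206 had 21.1, 21.9 and 24.0 TPM. POLE4-203 begins with an 86-base exon of its own (chr2:74959006-74959091, plus strand) inside an intron of POLE4-205, and lacks 401 bases at the 5′ end and 405 bases at the 3′ end of that form. In each line that follows, capitals mark a stretch that only 1 of the 2 forms holds and lower case marks its neighbouring exon bases: the retained intron of MCM7-210, the coding stretch missing from DBF4-204 and the first exon of POLE4-203.

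MCM7 retained intron: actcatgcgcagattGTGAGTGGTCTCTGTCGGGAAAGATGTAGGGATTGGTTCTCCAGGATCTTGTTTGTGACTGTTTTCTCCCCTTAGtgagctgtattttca
DBF4 skipped stretch: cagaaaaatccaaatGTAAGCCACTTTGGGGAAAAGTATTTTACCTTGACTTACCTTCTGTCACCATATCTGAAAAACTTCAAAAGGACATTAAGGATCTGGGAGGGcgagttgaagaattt
POLE4 alternative exon: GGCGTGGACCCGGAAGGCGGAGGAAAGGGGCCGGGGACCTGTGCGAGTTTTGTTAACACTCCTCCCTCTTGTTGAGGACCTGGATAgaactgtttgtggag

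The MCM7 stretch begins with GT and ends with AG, the usual intron ends. In POLA2, the fourth gene under 50%, the main transcript was protein-coding (POLA2-201, 20.5, 22.3 and 22.7 TPM) but held 28.5% of the level, with a retained-intron form, POLA2-203, at 13.7, 13.6 and 10.8 TPM.

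The most abundant transcript was the same in all 3 libraries in 54 of the 56 genes. The exceptions were ORC3, where ORC3-202 led in replicates 1 and 3 (17.0 and 18.6 TPM) and ORC3-201 in replicate 2, where ORC3-202 had 13.1 TPM, and MCM10, where MCM10-202 led in replicate 1 (23.6 TPM) and MCM10-206 in replicates 2 and 3 (24.4 and 23.4 TPM). In both genes the 2 forms are protein-coding. The main transcript held under 50% of the level in 18 genes and over 90% in 9. Main transcripts were not counted in this way for other genes, so these counts describe the 56 only. Besides DBF4, POLE4, POLA2, ORC3 and MCM10, the 18 were MCM5, MCM9, ORC4, ORC6, CDC6, GINS4, RECQL4, POLD1, POLE2, RFC4, LIG1, RPA3 and CLSPN, with main shares between 29.1% (LIG1) and 49.9% (ORC6). In ORC4 the leading transcript, ORC4-204, was 552 bases long and held 34.0%, 31.4% and 33.7% of the level.

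**Figure D4:**
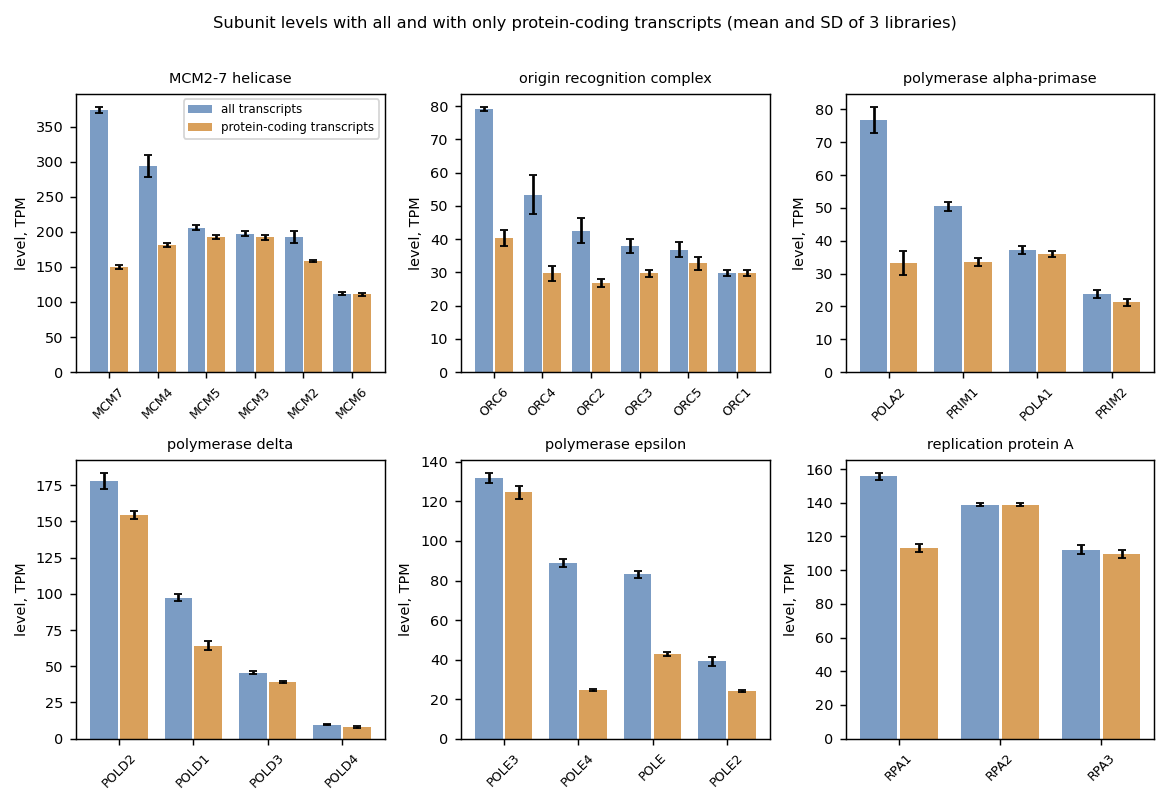
Mean level in TPM of the subunits of 6 complexes with all transcripts (blue) and with only protein-coding transcripts (orange), with SD of 3 libraries as error bars. MCM7 was highest of MCM2-7 with all transcripts, at 374 TPM, and MCM5 was highest with protein-coding transcripts, at 193 TPM.

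With only protein-coding transcripts counted, the order within several complexes changed. MCM5 (193 ± 3.37 TPM) and MCM3 (192 ± 3.35 TPM) were then the highest MCM2-7 genes, MCM4 followed at 181 ± 2.73 TPM, and MCM7 was at 149.7 ± 2.39 TPM, below MCM2 at 158 ± 1.67 TPM. The highest-to-lowest ratio among MCM2-7 was 1.74 ± 0.057 on protein-coding transcripts, against 3.34 ± 0.086 on all transcripts. In the origin complex the same ratio was 1.52 ± 0.158 on protein-coding transcripts, with ORC6 over ORC2, against 2.67 ± 0.092 on all transcripts. In polymerase alpha-primase it was 1.70 ± 0.102, with POLA1 over PRIM2, against 3.23 ± 0.156. In polymerase epsilon it was larger, at 5.17 ± 0.039 on protein-coding transcripts against 3.38 ± 0.239 on all, and in polymerase delta it was 19.3 ± 1.01 against 18.6 ± 1.11. MCM6, PCNA, FEN1, RFC3, RPA2, GINS2, MCM8 and ORC1 had 99.3% or more of their TPM in protein-coding transcripts, so their levels hardly depended on this choice.

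Some levels could also draw reads from elsewhere. Of the 31-base words in their transcripts, TIPIN shared 29.2% with other symbols, POLD4 29.2%, DBF4 23.6%, PRIM2 18.5%, ORC6 12.9% and ORC4 11.6%. For PRIM2 the closest symbol was AC244258.1, which was listed at 0 in all 3 libraries. PCNA shared 3.40%. Among the genes that shared 0% were MCM2, MCM6, MCM7, GMNN, CDC45, RECQL4, TICRR, CDC7 and POLA1. The effect of shared words on the levels was not tested.

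Some of these genes are annotated as starting next to a neighbour that runs in the opposite direction. Gene starts were taken as the outermost start of any annotated transcript. By these, a protein-coding neighbour on the other strand began within 1000 bases upstream in 14 of the 56 genes (25%). The share was 7.38% of 19931 protein-coding genes and 11.1% of the 8835 with at least 10 TPM. MCM4 and PRKDC, the catalytic subunit of the DNA-dependent protein kinase, began 2 bases apart, and had means of 294 TPM and 177 TPM. CDC45 and UFD1, a segregase cofactor, began 244 bases apart and had 94.7 TPM and 115 TPM. By gene starts, GINS3 and PRSS54 began 33 bases apart and had 34.6 TPM and 0.037 TPM. That GINS3 start belongs to GINS3-207, which was not among the transcripts above 0 TPM. It lay 97391 bases from the RefSeq start of GINS3, near which the main transcript GINS3-201 begins. The POLD3 gene start, beside LIPT2, likewise lay far upstream of its main transcript, POLD3-201. The 14 may thus overstate head-to-head starts of the RNA measured. PCNA and CDS2 had 348 TPM and 25.2 TPM, and LIG1 and ZSWIM9 had 74.9 TPM and 5.41 TPM. The neighbours thus ran between nearly absent and above the replication gene: ORC1, ORC6, CDC45 and MCM8 were lower than theirs, and the other 10 were higher.

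**Figure D5:**
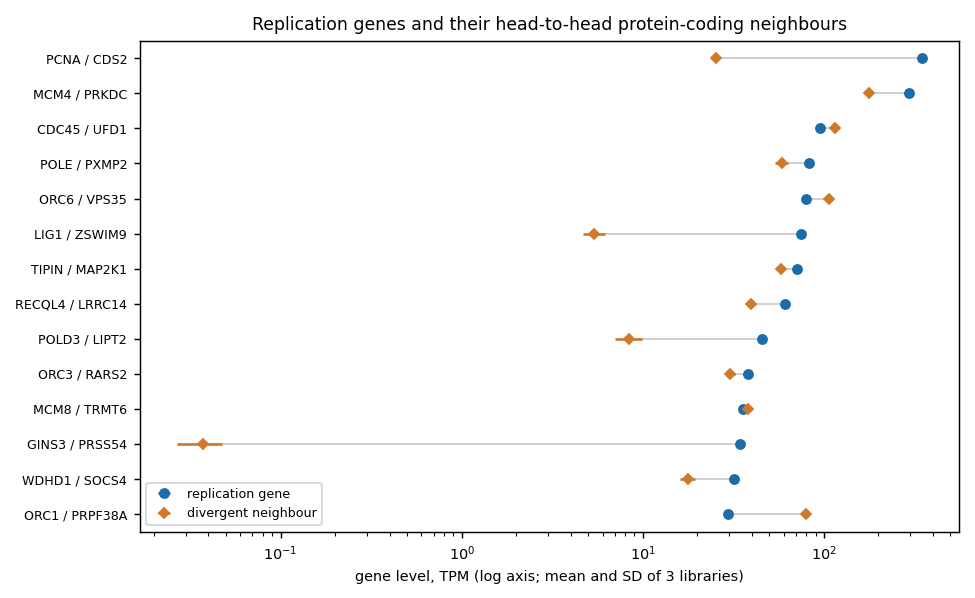
Mean level in TPM (log axis, SD of 3 libraries as bars) of the 14 replication genes with a head-to-head protein-coding neighbour within 1000 bases (blue points) and of that neighbour (orange diamonds). Neighbours were assigned by the outermost annotated gene starts. GINS3 and PRSS54 lie farthest apart in level, at 34.6 and 0.037 TPM, but the main GINS3 transcript does not begin beside PRSS54.

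Other genes of the pathway were read from 4 lists. Of 18 licensing and origin regulators, 16 were called above 1 TPM and 2 below, and the median was 48.8 TPM. The highest was CDC25A, a phosphatase that activates CDK2, at 105 ± 3.50 TPM, with CDK2 itself at 105 ± 6.95 TPM. The 2 below 1 TPM were GMNC, a geminin relative of multiciliated cells, at 0.095, 0.253 and 0.013 TPM, and MCMDC2, a meiotic MCM relative, at 0.066, 0.147 and 0 TPM. MCIDAS, another geminin relative, was at 4.29 ± 0.184 TPM, against 201.2 TPM for GMNN.

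Of 20 genes for the fork, alternative clamp loading and termination, 20 were called above 1 TPM and 19 above 10 TPM, with a median of 61.8 TPM. SSRP1, a subunit of the histone chaperone FACT, was highest at 390.2 ± 2.08 TPM, above MCM7 and PCNA, and PRIMPOL, the repriming enzyme, was lowest at 8.80 ± 1.32 TPM. All 9 nucleotide supply genes were called above 10 TPM and 6 above 100 TPM. RRM2, the S-phase subunit of ribonucleotide reductase, was highest at 192 ± 3.53 TPM, and RRM2B, its p53-induced relative, was lowest at 16.2 ± 0.460 TPM. Of 14 genes of other DNA polymerases, 13 were called above 1 TPM, with a median of 15.9 TPM. POLG, the mitochondrial polymerase, was highest at 147 ± 14.2 TPM. DNTT, the lymphoid terminal transferase, was listed at 0, 0.024 and 0 TPM and was called below 1 TPM.

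The 56 genes differed little between the libraries. Their median CV was 2.91%, against 3.49% for 8626 other genes with 10 to 350 TPM. The CV was over 5% in 13 genes and under 1% in 6 (PCNA, RFC5, ORC6, RPA2, GMNN and CLSPN). Other genes were not counted at these 2 limits, so the counts describe the 56 only. Replicate 1 held the highest value in 25 genes, replicate 2 in 9 and replicate 3 in 22. Among the 8626 other genes the shares were 33.5%, 29.6% and 36.9% for replicates 1, 2 and 3. Across the 56 genes the level and the length of the main transcript had a Spearman rho of -0.26, given as a description over genes that share libraries.

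Depth and identity of the libraries were as follows. Estimated counts were deposited for 1 library only, summed to 33184885 and matched replicate 1. They ranged between 161 (POLD4) and 21614 (MCM7) over the 56 genes, with a median of 3396, and TPM keeps no depth for the other libraries. Mitochondrially encoded genes held 6.52% to 6.78% of TPM, and scaling factors between libraries lay within 0.997 and 1.003. All 7 HEK293T-associated markers were called above 1 TPM, between 18.0 TPM (INA) and 401 TPM (VIM). Of the blood markers, CD3E and HBB were listed at 0 and PTPRC and LYZ were called below 1 TPM, and all 4 endothelial markers were called below 1 TPM. No label states that the 3 replicates were grown as separate cultures, and the p-values then cover only the spread among these libraries, which may be technical.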

How the data were processed

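RNA from untreated HEK293T cells was Trizol-extracted and oligo-dT captured before directional library preparation, per the labels' protocols. The submitters' processing notes name kallisto and hg38 as the quantifier and build. Versions, options and the transcript release are not given in the sources used here. Deposited TPM values are per transcript and library. The deposited estimated counts name no library, matched the TPM of replicate 1 and were used only to describe depth.

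TPM was summed by gene symbol. limma 3.58.1 (R 4.3.3) tested log2(TPM + 0.01) against 1, 10 and 100 TPM with a mean-variance trend, two-sided, adjusted by Benjamini-Hochberg over 21990 symbols above 0 in at least 1 library, and tested log2(TPM + 0.1) differences within libraries over 79 pairs. Differences on such scales understate those of low genes. Tests were checked on simulated data with genes drawn independently. The pair check gave every gene the same spread, so it does not cover the unequal spreads of the pairs here. Transcript types and positions came from GENCODE 29, which may not be the authors' release and matched 90.1% of transcripts (95.2% of replicate 1 TPM). Promoters came from RefSeq. Alternatives were other pseudocounts, a filter on mean TPM, TMM (edgeR 4.0.16) and median-of-ratios scaling, rescaling without mitochondrially encoded genes, protein-coding transcripts only, and leaving out each library.

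The members, lists, pairs and motifs were chosen with earlier results of these data known. Named were the highest and lowest gene of each role and list, genes above 100 or not above 10 TPM, the largest and smallest pair difference of each family, and genes with a variable, non-coding or minor main transcript. Neighbours, shared words and varying transcripts were named after their values were seen. One blood marker is not reported here.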

Additional observations from a re-analysis of the deposited data

How the results depend on the processing

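Across 11 alternative settings, 919 of 940 recomputed values were classed as unchanged, 7 reversed, 2 moved, 3 no longer passed and 9 newly passed. A sign change counted as reversed only where a test passed in either setting, and otherwise as unchanged. Counts of genes or pairs were classed as unchanged within a set fold. An example is 54 in place of 55 genes above 10 TPM on protein-coding transcripts, with DBF4 lost. The choice of transcripts mattered most, by construction, since it removes part of the level of most genes. With protein-coding transcripts only, DBF4 was at -3.50 against 10 TPM on the log2 scale, and the pairs ORC3/ORC5 (-0.14), POLA1/PRIM1 (0.10), POLE/POLE4 (0.79), RPA1/RPA2 (-0.29) and GINS2/GINS4 (0.72) reversed. Over all 79 pairs, 23 reversed under that setting, 17 of them called both ways, and 66 differed in place of 71. The summed level was 4075 TPM on protein-coding transcripts and 5528 TPM after rescaling without mitochondrially encoded genes, where POLD1 was called above 100 TPM (0.061 on the log2 scale). Leaving out 1 library, 66 to 72 pairs differed: 2, 5 and 2 pairs no longer passed and 3, 0 and 1 newly passed without replicates 1, 2 and 3 in that order. Among those lost were CDC6/CDT1 without replicate 1 (adjusted p = 0.0649 in limma's test) and RPA1/RPA2 without replicate 2 (adjusted p = 0.0536). No paired analysis was possible because the 3 libraries form 1 group. TPM keeps no depth, so counting error could be judged for replicate 1 only.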

Other observations

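DBF4B, a paralog of DBF4 that also activates CDC7, was at 56.9, 51.6 and 50.8 TPM in replicates 1, 2 and 3 with all transcripts counted. These values lay close to the 58.0, 56.0 and 61.0 TPM of DBF4. Protein-coding transcripts were assigned 1.58% of the DBF4 level, in a split that rests mostly on words its transcripts share. DBF4B was singled out after its values were seen, and its split by transcript type was not analysed here.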
